A study of Mus musculus with 4 samples.

Results

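The comparison described here set megakaryocyte-erythroid progenitors (MEP) against Lineage-negative, Sca-1-positive, c-Kit-positive stem and progenitor cells (LSK) in the mice that had received JQ1. It rested on 2 of the 4 arrays of the series, the JQ1 MEP array and the JQ1 LSK array, 1 for each cell type. Its members were the genes whose brightest probe was marked well above background on both arrays. These were 12263 of the 21154 genes with a named probe. A further 533 genes were above background on the MEP array only, 711 on the LSK array only, and 7646 on neither. Of the 55681 probes that were not controls, 23778 were above background on both arrays.

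The donor marrow came from C57BL/6 mice carrying JAK2V617F, the activating kinase mutation of myeloproliferative neoplasms, together with floxed Ezh2 and a tamoxifen-inducible Cre (Cre-ERT2). Wild-type recipients with the CD45.1 marker received it after lethal irradiation, and Ezh2 was then deleted, so that all 4 groups have the genotype JAK2V617F/Ezh2Δ/Δ. The recipients received JQ1, a small molecule that displaces BET bromodomain proteins from acetylated chromatin, or its solvent DMSO, for 2 weeks. The 4 groups, each with 1 array, are JQ1 LSK, JQ1 MEP, DMSO LSK and DMSO MEP. None of the sources used here names the promoter that drives the Cre. How many mice stand behind each array, and their age and sex, the sources used here do not say. Bone marrow was sorted directly after treatment, and 20 ng of total RNA was amplified and labelled with Cy3 for each array.

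In the bone marrow, LSK cells hold the stem cells and the multipotent progenitors from which all blood lineages descend. MEP are a later stage, restricted to making red cells and platelets, and lack Sca-1. On the path to red cells, GATA1 and its partner FOG1 replace GATA2 on shared target genes, KLF1 opens the globin and membrane genes through CACCC sequences, and the erythropoietin receptor, which signals through JAK2 and STAT5, keeps the cells alive. BET proteins bind acetylated lysines on histones and on transcription factors, GATA1 among them.

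All levels below are the log2 of an array's processed signal over that array's 75th percentile, so that 0 is the level of the probe at that percentile. Levels are compared between arrays for 1 gene and never between genes, because probes differ in brightness. A difference is MEP minus LSK on the log2 scale, less the difference of the median measured gene, which was 0.07 under JQ1 and -0.22 under DMSO. "Higher" and "lower" mean at least 2-fold, a log2 difference of 1, unless a value is given. Since no group has a second array, nothing here is tested or checked in a replicate, and differences between mice, sorts or amplifications cannot be told apart from differences between the cell types. In bulk RNA, a smaller number of cells of a kind and less RNA per cell cannot be told apart.

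Array error was judged from genes with several probes. Over 3138 genes with 6889 measured probes, the difference varied between probes of the same gene with an SD of 0.27. The scanner software gave a median error of 10.1% of the signal on both JQ1 arrays. The JQ1 arrays correlated at 0.982 with each other over 23013 probes. The DMSO MEP array stood apart, with correlations of 0.973 to 0.977 with the other 3 arrays, and it had 29615 probes above background against 25169 to 26370 on the others. The JQ1 comparison does not use it, but every DMSO difference given beside it does.

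The sorting marker Sca-1 followed the labels. Ly6a, which encodes Sca-1, read 4.28 on the JQ1 LSK array and 0.22 on the JQ1 MEP array, and 4.49 and -0.32 on the DMSO pair. Cd34 read 7.92 and 6.46 on the JQ1 arrays, and Kit 4.42 and 3.85. Fcgr3, one of the Fc receptors used to tell MEP from myeloid progenitors, read 0.52 and 1.10, so it was not lower in MEP. Of 9 genes for surface proteins used in common LSK and MEP sorts, 2 were higher and 2 lower, with Slamf1 highest at 1.18. These are genes of the gate and are not results. Gata1, Klf1 and Epor, which are not part of the gate, were all higher on the MEP array and are described below. The 6 Y-linked genes listed were above background on neither JQ1 array, while Xist read above background on both.

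Across the 12263 genes, 483 were at least 2-fold higher in MEP than in LSK, which is 3.94% of the measured genes, and 492 were at least 2-fold lower, which is 4.01%. Past 4-fold there were 143 higher and 67 lower. The split of 49.5% higher among the called genes is fixed largely by centring on the median gene. Without centring it was 55.9% on the 75th percentile scale, 66.7% when arrays were scaled to the median probe and 28.6% when they were scaled to the spike-in probes, for which the median gene differed by 0.07, 0.18 and -0.24. Of the called genes with at least 2 measured probes, all probes lay on the same side of the median gene for 75 of 81 higher genes and 72 of 76 lower genes.

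The genes highest in MEP were mostly genes of red cell precursors. Among the first 15 were Sphk1, Slc38a5, Car1, Atp1b2, Aqp1, Col5a1, Rhd, Tspo2, Hba-a2, Ces2g, Hba-a1, Cavin2, Cda and Klf1, and the differences of the 15 ran from 6.42 down to 4.74. The 15 lowest were Mcpt4, Tpsb2, Cma2, Chga, Cma1, Rprm, Ly6a, Ccl2, Slc16a11, Gpr162, Epb41l3, Cd200r3, Cyp11a1, Tff1 and AA467197, with differences from -7.87 up to -2.87. The first of these include 4 proteases stored in mast cell granules.

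**Figure D1:**
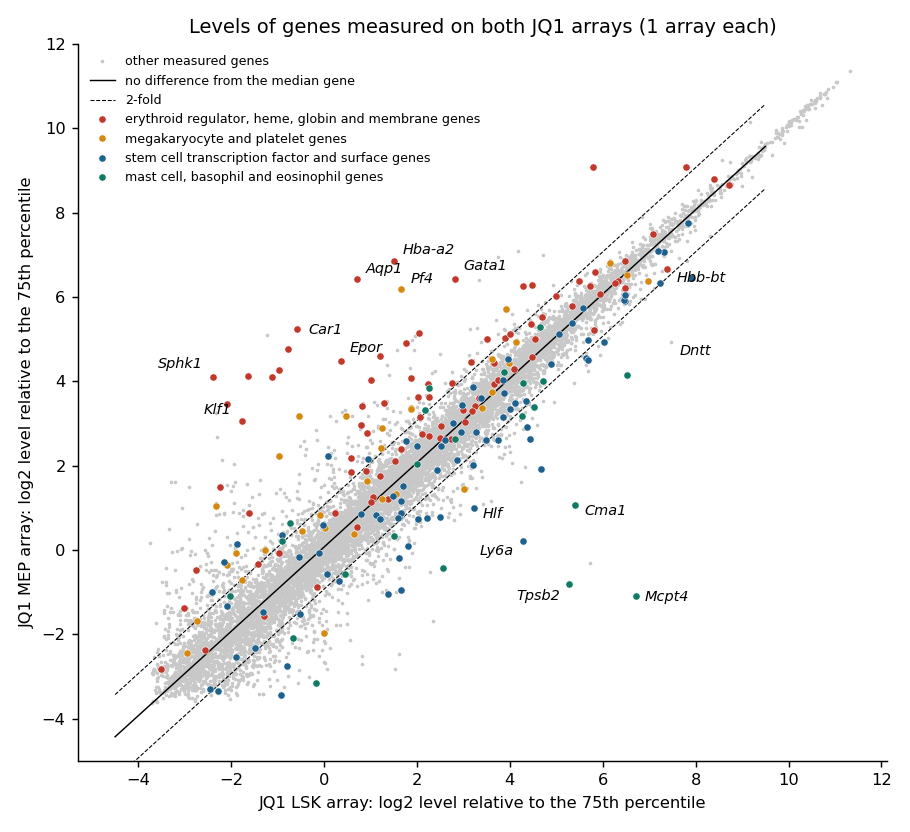
Level of each of the 12263 measured genes on the JQ1 LSK array (horizontal axis) and on the JQ1 MEP array (vertical axis), both as log2 relative to the array's 75th percentile, with 1 array per axis. The solid line marks no difference from the median gene and the dashed lines 2-fold; erythroid genes such as Sphk1, Aqp1 and Klf1 lie far above the lines, and the mast cell proteases Mcpt4, Tpsb2 and Cma1 far below.

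Promoters of erythroid genes often carry GATA sequences and CACCC boxes, the words that GATA1 and KLF1 recognise. The windows below are the 250 bases before the transcription start, from RefSeq on GRCm38.p6. They are shown because these genes are key erythroid genes with some of the largest MEP differences and a GATA match in the window. Capitals mark matches to GATA words, which were AGATAA beside the related TGATAA, and AGATAG beside the related TGATAG, or to the CACCC box words CCACACCC and also CCCCACCC. Both strands were searched, so that a match on the opposite strand reads as its reverse complement. The 2 CACCC words can overlap each other, and no GATA match overlapped a CACCC match in these windows.
Rhd, chr4:134864286-134864535, + strand: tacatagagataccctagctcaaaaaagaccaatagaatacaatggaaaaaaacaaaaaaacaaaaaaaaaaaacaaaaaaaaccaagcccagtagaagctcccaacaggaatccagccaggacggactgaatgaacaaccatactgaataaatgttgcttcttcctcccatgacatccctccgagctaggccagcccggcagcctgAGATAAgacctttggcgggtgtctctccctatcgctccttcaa
Hba-a1, chr11:32283422-32283671, + strand: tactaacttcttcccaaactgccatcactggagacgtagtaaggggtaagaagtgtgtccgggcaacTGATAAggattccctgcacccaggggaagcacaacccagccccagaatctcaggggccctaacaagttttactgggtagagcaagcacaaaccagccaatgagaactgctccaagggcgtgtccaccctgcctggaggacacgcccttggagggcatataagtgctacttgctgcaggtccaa
Klf1, chr8:84901732-84901981, + strand: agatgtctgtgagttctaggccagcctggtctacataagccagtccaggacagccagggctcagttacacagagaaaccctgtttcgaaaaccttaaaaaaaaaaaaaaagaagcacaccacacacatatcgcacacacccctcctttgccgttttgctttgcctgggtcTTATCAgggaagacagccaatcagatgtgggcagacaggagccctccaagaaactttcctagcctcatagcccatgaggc
Epor, chr9:21963577-21963826, - strand: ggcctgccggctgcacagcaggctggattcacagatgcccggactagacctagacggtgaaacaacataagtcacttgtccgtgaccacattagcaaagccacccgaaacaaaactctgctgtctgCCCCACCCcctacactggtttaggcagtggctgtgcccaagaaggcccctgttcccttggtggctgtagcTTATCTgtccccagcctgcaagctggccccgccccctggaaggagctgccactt
Each window holds 1 GATA match, which begins 43 bases before the start in Rhd, 183 in Hba-a1, 80 in Klf1 and 54 in Epor. The Epor window also holds 1 CACCC box, 124 bases before the start.

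Over whole groups of genes, the GATA words were less frequent among genes higher in MEP than among genes lower in MEP. Of the 379 higher genes with a promoter window, 75 held a GATA match (19.8%), against 85 of 368 lower genes (23.1%), 1747 of all 9869 measured genes (17.7%) and 27.1% of all 27025 windows of this length. CACCC boxes were held by 77 of the higher genes (20.3%), 56 of the lower genes (15.2%), 14.0% of the measured genes and 11.7% of all windows. Among the lists, 11 of 22 red cell membrane genes had a GATA match, as did 11 of 20 mast cell, basophil and eosinophil genes, whose lineage also uses GATA factors, and 2 of 23 heme and iron genes. These are descriptions of letters in 1 window per gene, with no test.

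Among the erythroid transcription regulators, 24 of 25 were measured, 6 were higher and none was lower, beside 3.94% of all genes. Their median was 0.21, and 19 of 24 lay above the median gene. Klf1, the erythroid Krüppel-like factor, read -1.76 on the JQ1 LSK array and 3.05 on the JQ1 MEP array, a 26.8-fold difference. Gata1, the master regulator of both red cells and platelets, read 2.81 and 6.43, which is 11.7-fold. In the DMSO pair Klf1 read -1.60 and 1.97, and Gata1 2.98 and 5.37, so both genes were low on both LSK arrays and high on both MEP arrays.

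The partners of Gata1 differed less. Zfpm1, which encodes FOG1, read 4.48 in LSK and 6.28 in MEP (difference 1.74), Gfi1b, a repressor needed for both MEP lineages, 3.51 and 5.01 (1.43), and Tal1, a subunit of the GATA1 complex, 3.91 and 5.03 (1.05). Tal1 stood at the threshold and fell to 0.97 under the alternative that lowered it most. Gata2, the factor that GATA1 replaces, was not lower in MEP, at 3.66 in LSK and 4.42 in MEP (0.69). Nfe2 (0.06), a regulator of globin and platelet genes, Myb (-0.00) and Lmo2 (-0.35), an adaptor of the same complex, lay near the median gene. Lmo2 was the lowest of the list.

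Of 31 genes of heme synthesis and iron handling, 30 were measured, 13 were higher and none lower, with a median of 0.75 and 27 of 30 above the median gene. The iron exporter Slc40a1 read -2.24 in LSK and 1.50 in MEP, 12.7-fold. Blvrb, biliverdin reductase B, read 1.20 and 4.61, 10.1-fold, and Cpox, the coproporphyrinogen oxidase of heme synthesis, 2.04 and 5.15, 8.19-fold. In the DMSO pair the differences of these 3 genes were 2.11, 3.06 and 1.82. All 3 were smaller than under JQ1, but these genes were named as the highest of the list under JQ1. Over the whole list, 8 of 30 measured genes were higher under DMSO, and the median there was 0.70, close to that under JQ1. The gap between the pairs was not tested.

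Tfrc, the transferrin receptor that brings iron into the cell, read 0.91 and 2.77 (difference 1.78), and its 3 measured probes gave 1.64 to 1.78. Fech, which inserts iron into the porphyrin ring, differed by 1.13. For Alad, an early enzyme of the same path, the brightest probe gave 1.22, while the mean over its probes gave 0.42, so its probes disagreed. Alas2, the erythroid enzyme that starts heme synthesis, was above background in MEP only, at -2.85 against -5.81, which is at least 2.70-fold higher. It was above background on neither DMSO array. The lowest member was Hmox1, heme oxygenase, at -0.78.

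The globins split by probe. Of 10 listed genes 8 had a named probe, 5 were measured, 3 were higher and none was lower by 2-fold. The alpha globin probes Hba-a1 and Hba-a2 read -1.13 and 1.50 on the JQ1 LSK array and 4.11 and 6.84 on the JQ1 MEP array, differences of 5.16 and 5.27. Hba-a1 and Hba-a2 encode near-identical messages, so these probes can report on the same RNA. The DMSO differences were 3.03 and 2.84.

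The probes named for adult beta globin genes did not move as 1 unit. Hbb-b1 read -1.63 in LSK and 0.88 in MEP (2.44), Hbb-b2 read 3.04 on both arrays (-0.07), and Hbb-bt read 7.39 in LSK and 6.66 in MEP (-0.80). The Hbb-bt value was -1.45 in the DMSO pair. The beta globin genes are close copies and their number differs between mouse strains, so probes may cross-hybridise, and which RNA each probe reports was not tested. The globin list median of 2.44 is the reading of the Hbb-b1 probe itself and has the same limit. Hbb-y, an embryonic beta-type globin, was above background in MEP only, at least 3.71-fold higher. The embryonic genes Hba-x and Hbb-bh1 were above background on neither array.

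The list of red cell membrane, surface and carbonic anhydrase genes held more higher genes than any other list. Of 43 genes, 29 were measured, 19 were higher and none was lower, with a median of 2.13, and 27 of 29 lay above the median gene. Car1, a carbonic anhydrase of red cells, read -0.57 in LSK and 5.25 in MEP, 54.0-fold, and its other measured probe gave 6.31. Aqp1, the water channel of the red cell, read 0.71 and 6.44, 50.5-fold. Rhd, the Rhesus blood group protein, read -2.08 and 3.47, 44.8-fold, and Epor 0.36 and 4.49, 16.7-fold.

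In the DMSO pair the same 4 genes differed by 5.37, 4.45, 4.96 and 3.55, all in the same direction. Sphk1, a sphingosine kinase, was the highest gene of the comparison at -2.38 and 4.11, 85.8-fold. Atp1b2, a sodium pump subunit, read -1.65 and 4.13, and Tspo2, an erythroid relative of the mitochondrial translocator protein, -0.79 and 4.77. Bcam, the Lutheran blood group protein, went the other way in the DMSO pair, with 2.21 under JQ1 and -0.94 under DMSO, and its MEP readings were -0.48 and -3.61. The lowest members were Sptbn1, a spectrin of non-erythroid cells, at -0.67 and Hemgn at -0.02.

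A further 12 members were read above background on the MEP array only, and 11 of these were past 2-fold by their bound. Add2, the beta adducin of the membrane skeleton, read 2.61 in MEP and -4.26 in LSK, at least 111-fold higher, and Cldn13, a claudin of erythroid cells, 2.45 and -4.55, at least 106-fold. Kel and Rhag, both blood group proteins, were at least 32.1-fold and 28.9-fold higher, and Ank1, the ankyrin that anchors spectrin, at least 27.8-fold. In contrast, Epb42, which encodes the membrane protein band 4.2, was above background on the LSK array only, at -0.06 against -3.53 in MEP, at least 11.6-fold lower in MEP.

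Megakaryocyte and platelet genes mostly lay above the median gene. Of 39 genes, 33 were measured and 25 lay above it, while 13 were higher by 2-fold and 2 lower, with a median of 0.84. Pf4, the platelet factor 4 chemokine, read 1.66 in LSK and 6.20 in MEP, 22.1-fold. Vwf, the von Willebrand factor, read -0.54 and 3.17, 12.5-fold. Gp1bb and Gp5, subunits of its platelet receptor, differed by 3.30 and 3.13, and Gp9, another subunit, by 1.42.

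In the DMSO pair Vwf was 4.01-fold higher, and Pf4, Gp1bb, Gp5 and Gp9 differed by 3.89, 2.04, 2.24 and 1.19. Itga2b, the platelet integrin CD41, differed by 1.12. The transcription factor Fli1 lay near the median gene, at 0.07. The 2 lower members were Mmrn1, the platelet protein multimerin, which read -0.01 in LSK and -1.96 in MEP (-2.03), and Selp, P-selectin, which read 3.01 and 1.44 (-1.64). Under DMSO they differed by 0.43 and -0.43.

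**Figure D2:**
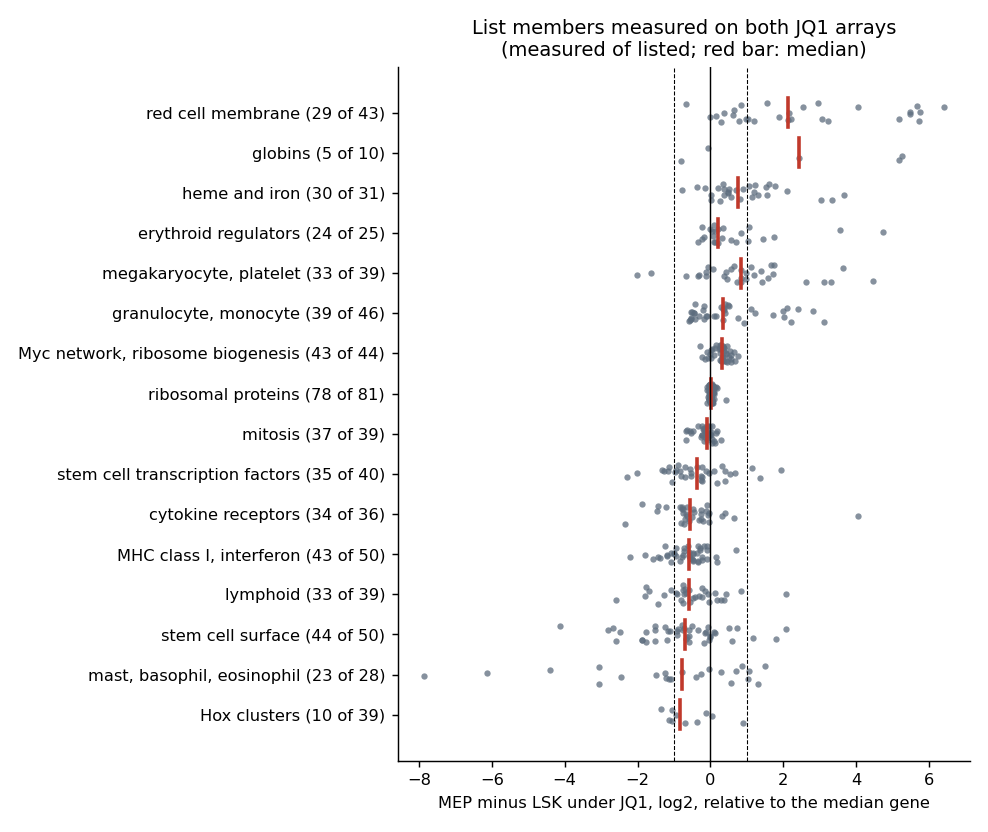
MEP minus LSK under JQ1, as log2 relative to the median gene, for the measured members of 16 gene lists, 1 point per gene, with the number measured of the number listed beside each name. Red bars are list medians, from 2.44 for globins and 2.13 for red cell membrane genes to -0.78 for mast cell genes and -0.83 for Hox genes; the Hox median rests on 10 genes and was -0.0062 with no background filter, and dashed lines mark 2-fold.

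More transcription factors of stem cells were lower in MEP than higher under JQ1. Of 40 genes, 35 were measured, 3 were higher and 7 lower, beside 4.01% of all genes, with a median of -0.37. Under the alternatives the median ran from -0.59, among genes above the median signal, to -0.30. Under DMSO, 3 of 36 measured genes were higher and 3 lower, with a median of -0.145. Hlf, a factor of the most primitive stem cells, read 3.23 in LSK and 1.01 in MEP, 4.90-fold lower in MEP. Nkx2-3 differed by -2.03, Erg by -1.34 and Sox4 by -1.27. Mecom, which sustains stem cells, was above background in LSK only, at -1.71 against -4.56, at least 4.01-fold lower in MEP, while the DMSO arrays gave a difference of 0.87. Meis1, a partner of Hox proteins, read 4.88 and 4.40 (-0.55). The 3 higher members were Tcf15 (1.95), Rora (1.35) and Zbtb16 (1.15), and the value of Rora was 0.61 under the alternative that lowered it most.

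Only 10 of 39 Hox cluster genes were measured, of which none was higher and 4 were lower, with a median of -0.83. That median was -0.53 with normexp background correction and -0.0062 over all 39 genes with no background filter. The lower genes were Hoxa3 (-1.37), Hoxa10 (-1.12), Hoxa9 (-1.06) and Hoxb2 (-1.06). Hoxa9, a stem and progenitor factor, read -0.52 in LSK and -1.51 in MEP. None of the 4 stayed past 2-fold under every alternative, with values from -0.88 to -0.70 at their weakest. The DMSO differences of the 4 genes were 0.14, -0.01, -0.07 and -0.05.

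Many surface and signalling genes of stem cells were lower in MEP. Of 50 genes, 44 were measured, 3 were higher and 16 lower, with a median of -0.70. Ly6a is part of this list and of the gate, so it is no result. Procr, the protein C receptor that marks stem cells, read 1.37 in LSK and -1.05 in MEP (-2.49), against 0.84 and -0.06 in the DMSO pair (-0.68). Vldlr, a lipoprotein receptor, read 4.67 and 1.93 (-2.81), Robo4, a guidance receptor that holds stem cells in the marrow, 1.66 and -0.95 (-2.68), and Flt3, the receptor of multipotent progenitors, 4.43 and 2.63 (-1.87).

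Emcn, the sialomucin endomucin, Esam, an adhesion protein of stem cells, and Cd27 differed by -2.60, -1.88 and -1.78. Under DMSO the differences of Vldlr, Robo4, Flt3, Emcn, Esam and Cd27 were -1.06, -2.05, -1.71, -0.58, -1.67 and -0.52, so that all 6 had the same sign with a smaller size. Vldlr, Robo4 and Emcn were named as lowest members under JQ1, so a smaller size in the other pair is partly set by the choice. Over the whole list, the median was -0.70 under JQ1 and -0.53 under DMSO, where 10 of 47 measured genes were lower and 4 higher. The higher members were Cd55, a complement regulator (2.08), the channel Trpc6 (1.79) and Slamf1, the stem cell marker CD150 (1.18), which is also used to subdivide MEP. Slamf1 differed by 2.35 under DMSO, and its JQ1 value was 0.80 under the alternative that lowered it most.

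Lymphoid genes, which LSK cells express as early priming, had a median of -0.60, which was -0.39 with normexp. Of 39 genes, 33 were measured, 1 was higher and 7 were lower. Under DMSO, 1 of 34 measured genes was higher and 18 were lower, with a median of -1.09. Dntt, the terminal transferase of lymphoid progenitors, read 7.46 in LSK and 4.93 in MEP, 6.06-fold lower, and 7.52 and 4.12 in the DMSO pair. Rag2, a recombinase subunit, differed by -1.76, the chromatin organiser Satb1 by -1.69, and Igll1, a surrogate light chain, by -1.09, or -0.96 at its weakest. Rag1, the partner of Rag2, differed by 0.19 under JQ1 and -2.02 under DMSO. The 1 higher member was Tcf7, a T lineage factor, at -2.03 in LSK and 0.12 in MEP (2.08), against -0.06 under DMSO.

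Granulocyte and monocyte genes did not follow that pattern. Of 46 genes, 39 were measured, 10 were higher in MEP and none was lower, with a median of 0.34, or 0.22 with no background filter. Under JQ1, 23 lay above the median gene and 16 below it. Under DMSO, 5 of 38 measured genes were higher and 9 lower, with a median of -0.35 and a highest value of 3.84. S100a8 and S100a9, the calprotectin subunits of neutrophils, were at 3.75 and 4.18 on the LSK array and at 6.94 and 7.08 on the MEP array, 8.67-fold and 7.08-fold. Camp, a granule peptide, read 1.85 and 4.32, 5.28-fold. Elane, the neutrophil elastase of promyelocytes, read 4.71 and 6.99 under JQ1, 4.63-fold, but 5.73 and 5.25 under DMSO (-0.27).

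Mpo, the myeloperoxidase, differed by 0.92 under JQ1 and -0.33 under DMSO. The regulators of the lineage did not share the higher values, with Cebpa at -0.31, Spi1 at -0.54 and Irf8 at 0.09, and the receptor Csf1r at -0.19. The summed level of the listed genes was 10.78 on the JQ1 LSK array and 11.50 on the JQ1 MEP array, and 11.40 and 10.89 on the DMSO pair. Some markers of granulocytes thus moved with the MEP label under JQ1, and some were higher in MEP under DMSO too. Their part in other differences was not tested.

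Mast cell, basophil and eosinophil genes held the lowest values of the comparison. Of 28 genes, 23 were measured, 4 were higher and 11 lower, with a median of -0.78. Mcpt4, a chymase of mast cell granules, read 6.72 in LSK and -1.08 in MEP, 234-fold lower, and 6.68 and -2.62 in the DMSO pair. Tpsb2, a tryptase, read 5.28 and -0.80, 70.6-fold lower, and Cma1, another chymase, 5.40 and 1.08, 21.1-fold lower. Cma2, outside the list, read 5.74 and -0.30. Cpa3, the carboxypeptidase of the same granules, read 6.52 and 4.15 (-2.45).

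The list was not uniform. The eosinophil granule genes Prg2 and Epx were higher in MEP, at 1.50 and 1.30, Epx reaching 0.99 under the alternative that lowered it most. Ms4a2, the beta chain of the IgE receptor, differed by 0.87, its alpha chain Fcer1a by -1.15, Hdc, the histamine-forming enzyme, by 0.29, and the basophil protease Mcpt8 by -0.27. Tpsg1, a tryptase, and Mcpt-ps1, a mast cell protease pseudogene, were above background in LSK only, at least 111-fold and 91.1-fold lower in MEP. Mrgprb1 and Mrgprb2, receptors of connective tissue mast cells, were at least 15.7-fold and 11.7-fold lower. The summed level of the listed genes was 8.82 and 7.58 on the JQ1 LSK and MEP arrays, and 9.01 and 7.49 on the DMSO pair. Mast cell granule genes were thus high on both LSK arrays, and their part in other genes that were lower in MEP was not tested.

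Markers of T and NK cells and of stroma were listed as well. Of 24 genes in the list of T and NK cells, 16 were measured and none of these was past 2-fold, with summed levels of 5.05 in LSK and 5.06 in MEP. Among their defining markers, Cd8a and Ncr1 were above background on neither array, and Cd3e and Xcl1 differed by -0.22 and -0.30. Ms4a1, a B cell gene kept in that list, was above background in LSK only, at least 2.47-fold lower in MEP. Of 24 stromal and endothelial genes 10 were measured, 3 of them higher and 1 lower, and a further 2 on the MEP array only and 3 on the LSK array only were past 2-fold by their bound. The higher genes were Col1a2 (3.08), Vcam1 (2.96) and Plvap (1.79). The lower gene was Col4a1, at -1.57. The summed level of the list was 7.32 in LSK and 8.14 in MEP, and its part in other differences was not tested. Col1a1, Cdh5 and Adipoq were above background on neither array, and Kdr differed by -0.15. Cxcl12, the other defining marker, was above background in LSK alone, at least 2.82-fold higher there than in MEP.

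**Figure D3:**
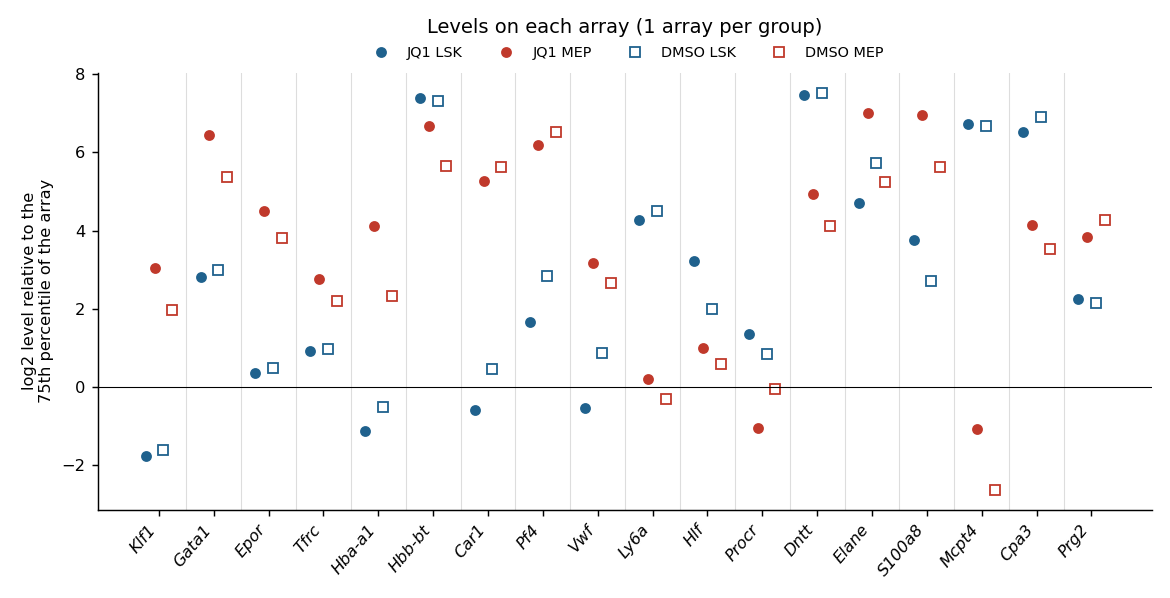
Level of 18 genes on each of the 4 arrays, as log2 relative to the array's 75th percentile. Filled circles are the JQ1 arrays, open squares the DMSO arrays, blue LSK and red MEP, with 1 array each and no error bar because there are no replicates; Klf1, Gata1 and Car1 lie higher on both MEP arrays, Mcpt4 and Ly6a higher on both LSK arrays, and Elane is higher in MEP on the JQ1 arrays only.

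MHC class I and interferon response genes mostly lay below the median gene, and a minority were lower by 2-fold. Of 50 genes, 43 were measured, none was higher and 10 were lower, and 40 of 43 lay below the median gene, with a median of -0.58. Ifi44 read 0.34 in LSK and -1.79 in MEP, 4.58-fold lower, and the antiviral synthetase Oas3 read -0.22 and -1.95, 3.49-fold lower. Its relative Oas2 differed by -1.59 under JQ1 and 0.82 under DMSO. Irf7 and Isg15, a regulator and a marker of the response, were at -0.94 and -0.99. The class I genes B2m and H2-K1 differed by -0.17 and -0.24. Under DMSO the list median was -0.44.

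Of 36 cytokine receptors 34 were measured, with 1 higher, 5 lower and a median of -0.55, beside 3.94% higher and 4.01% lower over all genes. Epor was the 1 higher receptor. The lower ones included the interleukin-1 receptor Il1r1, at 1.62 in LSK and -0.66 in MEP (-2.35), Flt3, Il4ra (-1.47) and Il6st, the shared chain of the interleukin-6 family (-1.45). Il4ra was at -0.97 under the alternative that left it weakest. Csf2rb, a receptor of early progenitors, was less different, at -0.78. Kit was at -0.65, but it is a gene of the gate and no result.

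Downstream of these receptors, 34 of 37 JAK-STAT genes were measured, 2 were higher and 6 lower, with a median of -0.16. Over all measured genes, 3.94% were higher and 4.01% lower, so the count of higher genes is near the general share and that of lower genes above it. Under DMSO, 2 of 36 measured genes were higher and none was lower, with a lowest value of -0.94. Jak2 itself read 2.42 in LSK and 3.12 in MEP (0.63), and 0.73 was its DMSO difference. Stat5a and Stat5b were at 0.21 and -0.18. Cish, a feedback inhibitor induced by STAT5, read 1.53 and 2.99 (1.39), and the sialomucin Podxl differed by 2.76. The lower ones included the feedback inhibitors Socs3 (-1.53) and Socs2 (-1.16), the kinase Jak3 (-1.48) and Dusp6, a phosphatase of the ERK path (-1.74). Socs3 read 3.90 and 2.44 under JQ1, but 2.99 and 3.03 under DMSO (0.25).

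Targets of the drug and their partners differed little between the cell types. The BET proteins Brd2 and Brd3 were at -0.02 and -0.14, Cdk9, the kinase of the elongation factor P-TEFb, at 0.03, and its inhibitor Hexim1 at -0.16. Of 22 such genes 21 were measured and 1 was higher, the elongation factor Ell2 (1.89), with a DMSO difference of 1.78. None of the 34 measured Polycomb genes of 36 was past 2-fold, and they spanned -0.67 for Cbx2 to 0.78 for Scml2. Ezh2 read 3.42 in LSK and 3.69 in MEP under JQ1, and 3.36 and 3.31 under DMSO. The position of its probe against the deleted exons could not be established, and these readings therefore do not check the deletion.

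Among fetal-type genes, 9 of 14 were measured. Hmga2, a chromatin protein that the let-7 microRNAs repress, read 1.60 in LSK and 0.30 in MEP (-1.38), and 1.07 and 0.73 under DMSO (-0.13). Lin28b, which blocks let-7, differed by 0.42 and Igf2bp3 by -0.32. Plagl1, an imprinted transcription factor, differed by 1.99, with 0.85 under the alternative that lowered it most.

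Genes of growth and division lay close to the median gene. Myc read 4.35 on both arrays (-0.07). Of 43 measured genes of the Myc network and ribosome biogenesis, 37 were above the median gene and none was past 2-fold, with a median of 0.32 and Ddx21, a nucleolar helicase, highest at 0.75. None of 37 measured mitosis genes and none of 46 measured replication genes was past 2-fold, with medians of -0.10 and 0.02. The 78 measured ribosomal protein genes spanned -0.10 to 0.43, with a median of 0.02. The corresponding mitochondrial ribosomal, respiratory chain and proteasome lists had medians of 0.17, 0.11 and 0.17.

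Some inhibitors of the cell cycle differed more. Cdkn2a, the locus of p16 and Arf, read 0.84 in LSK and 3.49 in MEP under JQ1, 5.95-fold, and 1.24 and 1.92 under DMSO (0.89). The files do not separate its 2 products. Its neighbour Cdkn2b was above background in MEP only, at least 15.6-fold higher. Rb1, the retinoblastoma protein, differed by 1.40 and Cdkn1a, which encodes p21, by 1.10, against 0.50 and 0.41 under DMSO. Cdkn1c, an inhibitor of quiescent stem cells, was at -0.83 and the cyclin Ccnd1 at -0.99.

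Of 28 measured survival and p53 genes 6 were higher and none was lower, with a median of 0.25, or 0.14 with no background filter. Under DMSO, 8 of 29 measured genes of this list were higher and none was lower, with a median of 0.41. Phlda3, Zmat3, Ccng1 and Cdkn1a, all targets of p53, differed by 1.78, 1.47, 1.29 and 1.10, and Bcl2a1d, a survival protein, by 2.15. In the DMSO pair the 4 targets differed by 0.77, 0.99, 0.57 and 0.41. Cdkn1a was at 0.93 under the alternative that lowered it most. Other p53 targets were not higher, with Mdm2 at 0.29, Trp53inp1 at -0.44 and Sesn1, the lowest of the list, at -0.95. Trp53 itself was at 0.37 and Bcl2 at -0.68.

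Among other lists, 5 of 27 measured genes of TGF-beta signalling and fibrosis were higher and 2 lower, led by Timp3, an inhibitor of matrix proteases, at 10.1-fold (3.34), and by Mmp2 (1.88), which reached 0.94 under the alternative that lowered it most. Smad1 was lowest at -1.24, and at -0.79 under the alternative that left it weakest. Of 30 measured inflammation genes 2 were higher and 5 lower, while over all measured genes 3.94% were higher and 4.01% lower. Ccl2, a monocyte chemokine, read 2.35 in LSK and -1.69 in MEP, 17.3-fold lower, Tnfaip2 differed by 2.69 and Il6 by 1.99, and Il1b was above background in MEP only, at least 6.39-fold higher. Of 22 measured genes of amino acid supply 3 were higher, with Slc38a5, a glutamine and glycine carrier, at -1.23 and 5.10, 76.8-fold.

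The remaining lists held few called genes. Of 31 measured glycolysis and hypoxia genes 1 was higher and 1 lower (Vegfa at 1.08 and Egln3 at -1.31), and of 35 lipid synthesis genes also 1 and 1 (Scd1 at 1.04 and Fads3 at -1.06), shares near those of all measured genes. At their weakest, Vegfa, Scd1 and Fads3 were at 0.82, 0.62 and -0.90. None of 32 lysosome and autophagy genes, 47 histone genes or 9 MHC class II genes was past 2-fold. The 4 measured tissue kallikrein genes, which are close copies of each other, lay between -0.38 and -0.05. Of 12 common reference genes none was past 2-fold, with Actb at 0.11, Hprt at -0.14 and Tbp at -0.08.

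The DMSO pair, which shares no array with the JQ1 pair but lies on the same slide, gave 705 higher genes (5.68% of 12407) and 536 lower genes (4.32%). Of the 450 genes that were higher under JQ1 and measured under DMSO, 220 were also higher there, which is 48.9% of the JQ1 list and 32.7% of the 673 DMSO genes measured under JQ1. Of 482 lower genes, 193 were lower in both, which is 40.0% and 42.1%. Without a threshold, 401 of the 450 and 411 of the 482 lay on the same side of the median gene in the DMSO pair. Over the 12016 genes measured in both pairs the differences correlated at 0.56 (Spearman 0.40), as a description across genes.

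The pairs also parted in genes outside the lineage lists. The 30 measured immediate early and heat shock genes had a median of 0.06 under JQ1 and 1.38 under DMSO. Fos read 4.29 in LSK and 4.62 in MEP under JQ1, and 4.45 and 5.78 under DMSO, and Jun 5.68 and 6.09, and 6.14 and 7.46. Malat1, a nuclear noncoding RNA, read 2.63 and 2.28 under JQ1, and 2.62 and 5.55 under DMSO. The high readings were those of the DMSO MEP array, the array that stood apart. The heat shock genes Hspb1 (1.90) and Hspa1a (1.46) were higher in MEP under JQ1 as well, with 2.87 and 2.19 under DMSO.

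**Figure D4:**
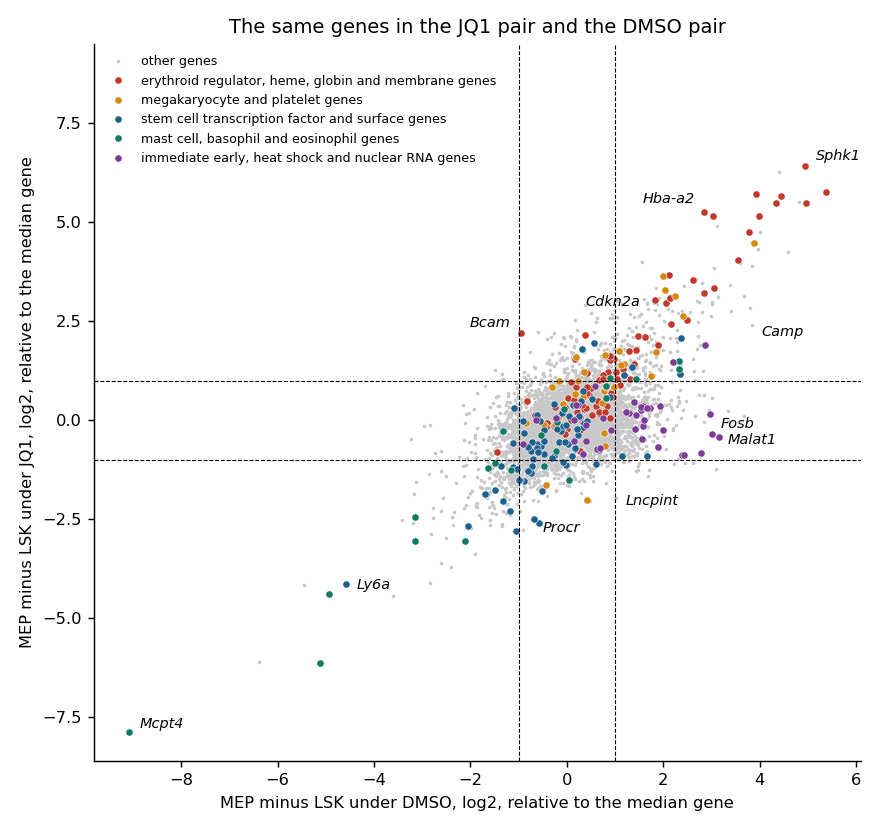
MEP minus LSK under DMSO (horizontal axis) and under JQ1 (vertical axis), log2 relative to the median gene of each pair, for the 12016 genes measured in both, with dashed lines at 2-fold. Erythroid genes such as Hba-a2 lie at the upper right, while others lie near the centre and Bcam at the upper left. Mcpt4 and Ly6a lie at the lower left, and immediate early, heat shock and nuclear RNA genes such as Fosb and Malat1 spread along the horizontal axis.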

How the data were processed

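Per the file headers, the authors scanned 4 one-colour Agilent arrays of design 028005 and extracted them with Feature Extraction 10.7.1.1; each deposited scanner file gives, for every spot, its processed signal and the error of that signal as an intensity, with marks of another kind (background, outlier) used as filters. The authors' deposited table holds a ratio per probe whose 75th percentile is 1.00 on each array, and was used as an alternative. Log2 signals were averaged over unmarked spots of a probe and reduced by the array's 75th percentile. Probes were named through their accessions and RefSeq (GRCm38.p6): 28026 of 55681 received 1 symbol. A gene was its brightest probe. For a gene above background on 1 array, the bound sets its level against the larger of its own reading and the lowest signal above background on the other array. No p-value was computed, since each group has 1 array. Functions were tested on simulated data. The alternatives were other scalings, quantile and normexp (limma 3.58.1, offset 50, on median spot signals, as mean signals were not used here), other filters, the mean over probes and no centring.

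The comparison, its 42 gene lists and the alternatives were chosen with earlier results of these data known. Named genes are the 15 highest and 15 lowest, the 8 highest on either side by bound, key members and the 4 highest and lowest members of each list, Ezh2, and up to 10 in each direction that were 2-fold the other way under DMSO. A few genes that this rule names are not reported here. Values were computed in Python 3.11.15.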

Additional observations from a re-analysis of the deposited data

Results flagged for a closer look

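The 18 genes below differ by at least 2-fold in 1 direction under JQ1 and in the opposite direction under DMSO, and the 14 named here follow from the rule for named genes. The difference between the pairs was not tested, since each pair has 1 array per cell type. Higher in MEP under JQ1 and lower under DMSO were Tspan12, a tetraspanin (1.27 and -1.49), the homeobox gene Irx4 (1.16 and -1.34), the muscle light chain gene Mylpf (1.03 and -1.32) and Mefv, the pyrin gene of granulocytes and monocytes (1.02 and -1.36).

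Lower under JQ1 and higher under DMSO was first of all Lncpint, a long noncoding RNA, at -1.96 and 1.03. It read -0.22 in LSK and -2.11 in MEP under JQ1, and -0.81 and 0.01 under DMSO. The transcription factor gene Pou5f2 (-1.41 and 1.69), Gm16523 (-1.29 and 1.44), the insulin receptor relative Insrr (-1.27 and 1.49), the receptor gene Gpr26 (-1.25 and 1.70), 8430431K14Rik (-1.24 and 3.10) and the glutathione peroxidase gene Gpx2 (-1.16 and 1.48) had the same pattern. So had the GABA receptor gene Gabbr1 (-1.12 and 2.23), Mss51 (-1.08 and 2.46) and 4933439C10Rik (-1.08 and 2.62).

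Of the 14 named genes, 2 stayed past 2-fold under JQ1 in every alternative, Lncpint and Pou5f2. At their weakest, the JQ1 values of the others that were higher were 0.57 for Tspan12, 0.62 for Irx4, 0.57 for Mylpf and 0.78 for Mefv. Those of the lower genes were -0.31 for Insrr, -0.38 for Gabbr1, -0.39 for Mss51, -0.40 for 8430431K14Rik, -0.46 for Gpr26, -0.58 for 4933439C10Rik, -0.76 for Gm16523 and -0.85 for Gpx2.

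The nuclear-retained long noncoding RNAs differed between the pairs as a list, with a median of -0.28 under JQ1 and 1.62 under DMSO. The value under DMSO rests on the DMSO MEP array, which stood apart from the other 3, and this difference was not tested either.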

How the results depend on the processing

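With 9 alternatives to the setting used, the number of higher and lower genes was within 1.5 times of 483 and 492 except under 3. It was 289 and 249 with normexp, 1285 and 1607 with no background filter, and 128 and 132 among genes above the median signal, where fewer genes are counted. Scaling to the median probe or to the spike-in probes had to return 483 and 492, because centring on the median gene cancels the scaling of an array. Those alternatives are therefore no check of the counts. The authors' deposited table is scaled in the same way as the setting used, so its counts of 481 and 492 are no separate check either. Without centring, the spike-in scale gave 340 higher and 848 lower genes. The globin median of 2.44 became 1.54 with normexp, 1.35 with no filter and -0.11 among bright genes, where 3 globins are left. The red cell membrane median became 2.88 with no filter. The mast cell median of -0.78 became -0.47 with the mean over probes, -1.15 with no filter and -0.42 among bright genes. Smaller lists changed sign: X-inactivation and Y-linked genes reached 0.0067 with no filter, stromal genes -0.0087 with no filter and -0.16 among bright genes, and nuclear RNAs 0.26 among bright genes, as did inflammation genes (from -0.25 to 0.21) and TGF-beta genes (from 0.02 to -0.19). Some medians near 0 also changed sign. The Hox median of -0.83 became -0.53 with normexp and -0.0062 with no filter, and the lymphoid median of -0.60 became -0.39 with normexp. Normexp made many of the largest differences smaller, with Sphk1 at 5.07 in place of 6.42 and Klf1 at 3.76 in place of 4.74. The cause was not tested.

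All 80 named genes past 2-fold higher and all 72 lower kept their sign under every alternative, and 60 and 54 kept the call under all of them. Scaling to the median probe or to the spike-in probes could not change a sign or a call, because centring cancels it. The authors' deposited table shares the scaling of the setting used and is no separate check of it. Other filters and no centring moved every gene by the same small amount. They could change a call near the threshold, but not the sign of a gene past 2-fold. The signs were therefore open to change only under quantile, normexp and the mean over probes. The shift of the median gene on the spike-in scale, -0.24, was not applied to the named genes. No paired analysis was possible because each group has 1 array. Depth does not apply to arrays: 31903 of 55681 probes were not above background on both JQ1 arrays, and their genes have a bound or no value.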

Other observations

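Probes with no RefSeq symbol were measured on both JQ1 arrays 7755 times. Of these, 144 were at least 2-fold higher in MEP and 439 at least 2-fold lower. Counted over all measured probes, 754 were higher and 1027 lower, so the excess of lower probes lies mainly among those without a symbol.

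Several of the largest differences belong to genes outside any listed group. Col5a1, a fibrillar collagen chain, read -2.33 in LSK and 3.24 in MEP under JQ1, 45.2-fold higher, and 28.1-fold higher under DMSO. Cavin2, a caveolar coat protein, was 30.1-fold higher. Chga, chromogranin A of secretory granules, read 1.53 in LSK and -2.83 in MEP, 21.5-fold lower, and Rprm 17.9-fold lower, while Jchain, the joining chain of antibodies, was above background in LSK only, at least 26.6-fold lower in MEP. Under DMSO, Chga and Rprm were 12.2-fold and 43.5-fold lower.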
